A study of Mus musculus with 16 samples.

Results

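The 10 genes described here, Mki67, Top2a, Ccna2, Ccnb1, Cdk1, Birc5, Pcna, Mcm2, Ccnd1 and Spag5, belong to the machinery of cell division. They were measured in interscapular brown adipose tissue (BAT), a heat-producing fat depot, and are 10 of 51060 genes with a listed transcript. The set was chosen on the measured difference between OPA1 BKO and WT tissue in these same mice, so that difference is given as a description, without a test. All 10 genes passed the filter on low counts, as did 15632 genes in all.

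RNA-seq of polyadenylated RNA was made from 16 mice, 4 in each of 4 groups: WT females, WT males, OPA1 BKO females and OPA1 BKO males. All were 7 weeks old on a C57Bl/6J background, were kept at room temperature on ad libitum chow, and carried Opa1 alleles flanked by loxP sites on both chromosomes. OPA1 BKO mice also carried Cre recombinase under the Ucp1 promoter, which is active in thermogenic adipocytes, so the other cell types of the depot keep Opa1. WT mice were littermates without Cre. Opa1 encodes a fusion protein of the inner mitochondrial membrane. It measured 152 to 210 CPM (counts-per-million, scaled between libraries by TMM, the trimmed mean of M-values) in WT mice and 17.9 to 36.9 CPM in OPA1 BKO mice, and the groups did not overlap. Libraries held 13607283 to 23114534 estimated counts.

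Cells that divide pass from G1 through DNA synthesis (S phase) and G2 to mitosis. Cyclin D1 (Ccnd1) acts in G1, Mcm2 and Pcna serve DNA replication, and cyclin A2 (Ccna2) and topoisomerase II alpha (Top2a) act from S phase into G2 and mitosis. Cdk1 with cyclin B1 (Ccnb1) drives entry into mitosis, and survivin (Birc5) and astrin (Spag5) act at the centromere and the mitotic spindle. Mki67 encodes Ki-67, the usual histological mark of cycling cells. Mature brown adipocytes are largely post-mitotic, and in the depot dividing cells are mostly found among precursors, immune and vascular cells. Transcription of the late genes is commonly tied to 2 promoter elements, the CCAAT box and the cell cycle homology region (CHR).

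All 10 genes had a higher mean in OPA1 BKO than in WT mice, and Spag5 stood far above the rest. Spag5 had a log2 fold change of 4.08 (SE 0.30), Mki67 of 2.11 (SE 0.29) and Top2a of 1.92 (SE 0.24). Cdk1, Birc5 and Ccna2 had log2 fold changes of 1.44, 1.33 and 1.28, and the genes of G1 and of replication were lower, with 0.61 for Mcm2, 0.43 for Ccnd1 and 0.23 for Pcna. Since the set was chosen on this contrast, no call is given for its genes. The median log2 fold change was 1.30 over the set and 0.01 over all genes. In whole tissue, more dividing cells and more RNA per cell cannot be told apart.

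**Figure D1:**
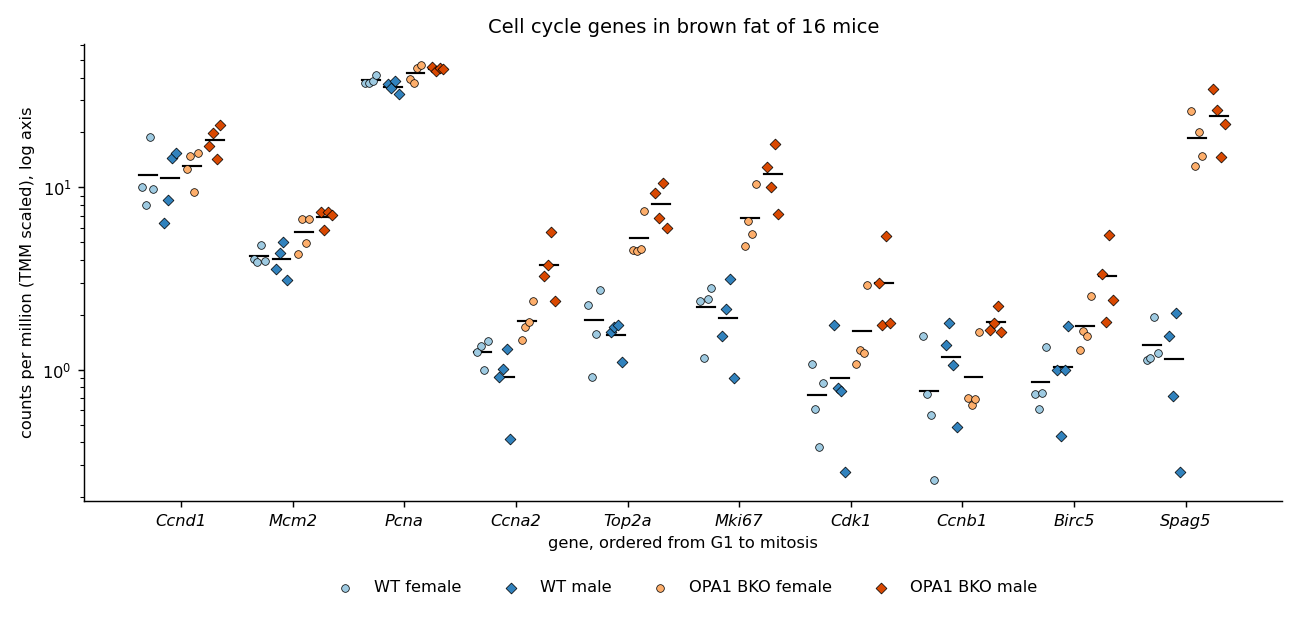
TMM-scaled CPM of the 10 genes in each of 16 mice on a log axis, with a point for each mouse, a bar at each group mean and 4 groups of 4 mice. Spag5 measures 0.28 to 2.06 CPM in WT mice and 13.1 to 34.4 CPM in OPA1 BKO mice, and Pcna shows the highest level and the narrowest spread.

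These folds rest on a scaling that sets the bulk of genes equal between the genotypes. Genes of the mitochondrial genome took 23.1% to 30.4% of counts in WT and 4.41% to 8.96% in OPA1 BKO libraries, and TMM factors ran from 0.746 to 0.88 in WT libraries but from 1.18 to 1.27 in OPA1 BKO libraries. With library size alone the median of all genes was 0.57 on the log2 scale, with 10869 genes called higher and 373 lower. Under limma on TPM (transcripts-per-million), which scales counts by transcript length and by their sum in a library, it was 0.81, with 13492 called higher and 119 lower. Spag5 stood 4.06 and 2.96 above the median of all genes under these scalings. For limma, 0.5 TPM was added before logs were taken. Spag5 had a mean of 0.51 TPM in WT mice, so this offset also shrinks its fold there.

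Spag5 was low in WT tissue. WT females (S01, S05, S09 and S13, in this order for each gene) measured 1.14, 1.16, 1.94 and 1.24 CPM and WT males (S03, S07, S11 and S15) 1.53, 0.72, 2.06 and 0.28 CPM. OPA1 BKO females (S02, S06, S10 and S14) measured 26.1, 13.1, 20.1 and 14.9 CPM and OPA1 BKO males (S04, S08, S12 and S16) 34.4, 26.6, 14.7 and 22.3 CPM. Every OPA1 BKO mouse stood above every WT mouse, and the lowest of them measured 6.37 times the level of the highest WT mouse. A WT library held 4 to 31 estimated counts of Spag5 and an OPA1 BKO library 242 to 724. Among all 15632 genes, Spag5 ranked 25 by log2 fold change, Mki67 165 and Top2a 197.

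Spag5 lies at chr11:78301529-78322457 on the plus strand of GRCm38, and 8 of its annotated transcripts were quantified. The full-length coding transcript has 24 exons and 3887 bases. Its TPM was 0.253 ± 0.121 in WT and 8.80 ± 3.33 in OPA1 BKO mice (SD, n = 8 each), or 49.3% and 65.4% of the TPM of the gene. Its range was 0.037 to 0.43 TPM in WT and 5.30 to 14.5 TPM in OPA1 BKO mice, so the rise lay mostly in the transcript that encodes the protein. A short annotated transcript of 574 bases with a retained intron was listed at a mean of 0.0023 TPM in WT mice and 1.75 TPM in OPA1 BKO mice, 13% of the TPM of the gene there.

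Mki67 was the second most changed of the set. WT females measured 2.38, 1.16, 2.44 and 2.82 CPM and WT males 1.53, 2.15, 3.13 and 0.90 CPM. OPA1 BKO females measured 4.78, 6.51, 5.57 and 10.4 CPM and OPA1 BKO males 12.9, 9.98, 17.3 and 7.18 CPM. The genotypes did not overlap, and OPA1 BKO male S12 was the highest mouse. Top2a, which untangles DNA before chromosomes separate, followed the same order, with 0.92 to 2.72 CPM in WT (median 1.66) and 4.49 to 10.5 CPM in OPA1 BKO mice (median 6.38). S12 was again highest. Ccna2 measured 0.42 to 1.43 CPM in WT (median 1.13) and 1.45 to 5.71 CPM in OPA1 BKO mice (median 2.38), so the lowest OPA1 BKO mouse lay just above the highest WT mouse. Of its 31-base words, the unit that Kallisto matches, 11.8% occur in Exosc9, which overlaps it on the other strand. With Spag5, these were the 4 genes of the set in which every OPA1 BKO mouse stood above every WT mouse, which 5.07% of all genes did.

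The mitotic genes Cdk1, Birc5 and Ccnb1 overlapped between the genotypes. Cdk1 measured 0.28 to 1.75 CPM in WT (median 0.776) and 1.07 to 5.41 CPM in OPA1 BKO mice (median 1.78), and 5 of 8 OPA1 BKO mice were above the highest WT mouse. Birc5 measured 0.43 to 1.73 CPM in WT (median 0.871) and 1.29 to 5.47 CPM in OPA1 BKO mice (median 2.12), again with 5 of 8 above. Ccnb1, the partner of Cdk1, changed least among the mitotic genes, with a log2 fold change of 0.45 (SE 0.32). It measured 0.25 to 1.80 CPM in WT and 0.64 to 2.25 CPM in OPA1 BKO mice. The counts behind Ccnb1 were 5 to 49 in a library, and 27.8% of its 31-base words are shared with transcripts of other genes, mostly the pseudogene Ccnb1-ps.

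The replication genes and cyclin D1 were expressed in every WT mouse, with log2 fold changes from 0.23 (Pcna) to 0.61 (Mcm2). Mcm2, a subunit of the replicative helicase, measured 3.11 to 5.03 CPM in WT (median 3.99) and 4.3 to 7.35 CPM in OPA1 BKO mice (median 6.71). Pcna, the sliding clamp of DNA polymerases, measured 32.3 to 41.4 CPM in WT (median 37.3) and 37.4 to 47.0 CPM in OPA1 BKO mice (median 44.7). In both genes 6 of 8 OPA1 BKO mice stood above the highest WT mouse. Ccnd1 measured 6.41 to 18.9 CPM in WT (median 9.97) and 9.47 to 22.1 CPM in OPA1 BKO mice (median 15.1), with 2 of 8 above. Of the 31-base words of Pcna 23.3% occur in Pcna-ps2, and of those of Ccnd1 22.3% occur in LTO1, which overlaps it on the other strand. Whether Kallisto was run with strand is not given in the sources used here.

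Per length, in TPM, the order of levels differed between the genotypes. In WT mice Pcna was highest at a mean of 24.4 TPM, Ccnd1 measured 2.83 TPM and Mcm2 1.14 TPM. The other 7 lay between 0.18 TPM for Mki67 and 0.864 TPM for Cdk1, with SDs of 0.0691 to 0.471 TPM, and neighbours in that order differed by less than the larger of their SDs, except Mki67 and Ccna2. In OPA1 BKO mice Pcna was again highest at 53.8 ± 3.95 TPM (SD, n = 8) and Spag5 came next at 13.5 ± 4.51 TPM (SD, n = 8), above Ccnd1 at 7.59 ± 2.15 TPM and Top2a at 5.32 ± 1.91 TPM. Cdk1, Birc5 and Mcm2 followed at 4.43, 3.75 and 3.18 TPM, and Ccna2, Mki67 and Ccnb1 at 1.81, 1.52 and 1.21 TPM, where neighbours within each trio differed by less than the larger of their SDs. Spag5 thus stood at the level of the other mitotic genes in WT mice and above all of them in OPA1 BKO mice.

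Whether Spag5 followed the other genes was asked from mouse to mouse within each genotype, where the contrast that chose the set does not enter. Among the 8 OPA1 BKO mice, Mki67 went closely with the late genes. Pearson's r on log2 CPM was 0.97 with Top2a, 0.96 with Cdk1, 0.93 with Ccna2, 0.92 with Birc5 and 0.87 with Ccnb1, and it was 0.76 with Mcm2, 0.58 with Pcna and 0.37 with Ccnd1. The first 5 passed an exact two-sided permutation test after Benjamini-Hochberg adjustment over the 34 relations computed, with adjusted p = 0.0025 for Top2a and Cdk1, 0.0091 for Ccna2 and Birc5 and 0.0263 for Ccnb1. Spearman's rho for them ran from 0.79 to 0.98, with adjusted p-values of 0.0067 to 0.0388 for 4 of them and 0.119 for Ccnb1 by the same permutation test. Mcm2 passed by rank with a rho of 0.88 (adjusted permutation p = 0.0492) but not by Pearson's r (adjusted permutation p = 0.103). Without S02 and S12, the 2 mice farthest from the median of Mki67, these 5 coefficients were 0.80 to 0.97. After centring on the mean of each sex they were 0.76 to 0.95, and the lowest adjusted p of the permutation test was then 0.0787, which misses the threshold.

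Spag5 did not show this in the same 8 mice. Its r with the other 9 genes ran from -0.25 (Mcm2) to 0.22 (Ccnd1), with a median of 0.01. With Mki67 it was -0.06 (rho 0.00), with Top2a 0.09 (rho 0.19) and with Cdk1 -0.17 (rho -0.05). By the exact permutation test 0 of the 9 relations had an adjusted p under 0.05 and 0 had an unadjusted p under 0.05, and with 8 mice an r of 0.70 to 0.72 was needed for the latter. After centring on sex r ran from -0.66 to -0.0007. Without S04 and S06, the mice with the most and the least Spag5, it ran from -0.81 to 0.19. Leaving out these mice narrows the range of Spag5, so the latter cannot show whether the lack of a relation rests on them. S12, highest in Mki67 and Top2a at 17.3 and 10.5 CPM, measured 14.7 CPM of Spag5, the second lowest of the OPA1 BKO mice. S02, lowest in Mki67 at 4.78 CPM, measured 26.1 CPM of Spag5. The difference between the coefficients of Spag5 and of Mki67 was not itself tested.

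**Figure D2:**
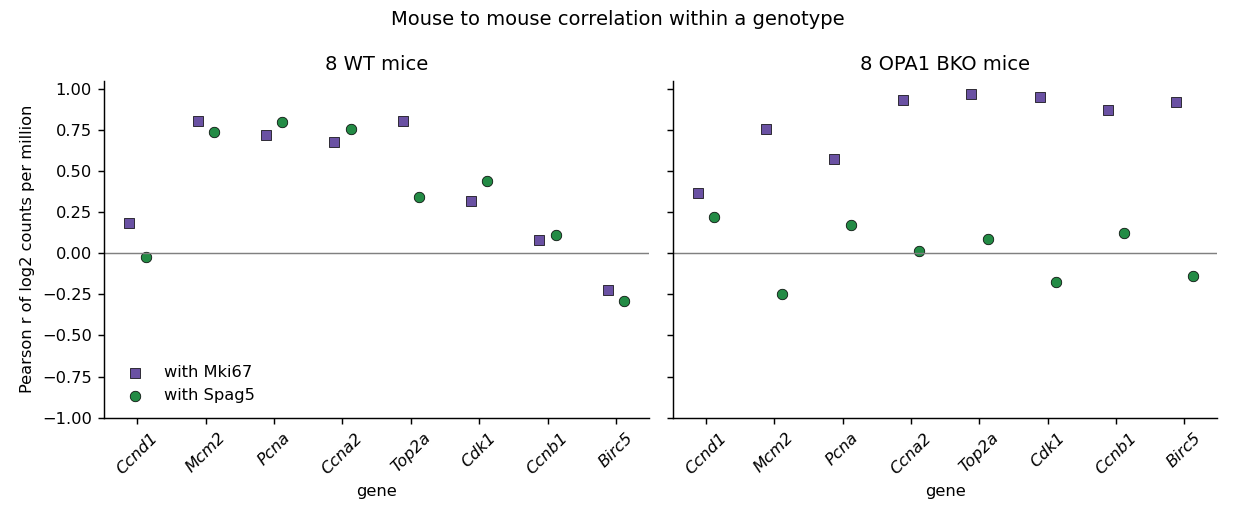
Pearson's r of log2 CPM between each of 8 genes and Mki67 (squares) or Spag5 (circles), over 8 WT mice on the left and 8 OPA1 BKO mice on the right. In OPA1 BKO mice the squares of Top2a, Cdk1, Ccna2, Birc5 and Ccnb1 lie between 0.87 and 0.97 while all circles lie between -0.25 and 0.22, and in WT mice squares and circles together run from -0.29 to 0.81.

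Among the 8 WT mice, where both genes were low, the coefficients ran from -0.29 to 0.80 for Spag5 and from -0.22 to 0.81 for Mki67. Spag5 had r of 0.80 with Pcna, 0.76 with Ccna2, 0.74 with Mcm2 and 0.68 with Mki67, and of -0.29 with Birc5. The median of its 9 coefficients was 0.44, 2 had an unadjusted p under 0.05, and the lowest adjusted p of the exact permutation test was 0.0987. Without S11 and S15, the mice with the most and the least Spag5, the coefficients ran from -0.44 to 0.55. Leaving out the extremes narrows the range of Spag5, so this cannot show whether the relation rests on those mice. Mki67 had r of 0.81 with both Top2a and Mcm2, and its lowest adjusted p by the same permutation test was 0.0747. The change of the coefficients of Spag5 between WT and OPA1 BKO mice was not tested.

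Over all 16 mice, which mixes the difference between the genotypes with that between mice, the 5 genes most like Spag5 (Pearson's r of log2 CPM among 13597 genes) were Soat2 at 0.98, Trib3 at 0.97, Fjx1 at 0.97, Slc7a5 at 0.96 and Vps39 at 0.96. Soat2 encodes a cholesterol esterification enzyme, Trib3 a pseudokinase of the integrated stress response and Slc7a5 an amino acid transporter. Trib3 measured 5.26 to 15.8 CPM in WT and 226 to 333 CPM in OPA1 BKO mice. Top2a ranked 202 on this measure, Mki67 221 and Ccnb1 4245. Over the 8 OPA1 BKO mice alone the 5 most alike were Pidd1 at 0.97, Wrb, Rfk and 2300009A05Rik at 0.96 and Rap1gap2 at 0.95, and Mki67 ranked 7946. Over the 8 WT mice Ska2, a spindle and kinetochore protein, led at 0.96 and Tpx2, a spindle assembly factor, was the fifth at 0.93. None of these ranks carries a test.

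The gene that lies next to Spag5 rose too. Aldoc, which encodes the glycolytic enzyme aldolase C, starts 511 bases beyond the end of Spag5 on the same strand, at chr11:78322968-78327781. It measured 0.90 to 3.87 CPM in WT mice. OPA1 BKO females measured 18.4, 7.79, 23.5 and 12.1 CPM of Aldoc and OPA1 BKO males 38.1, 36.3, 10.5 and 16.6 CPM, with no overlap with WT mice. Its log2 fold change was 3.07 (SE 0.37, adjusted p = 1.05e-05, edgeR). Of the other 5 tested coding genes within 50 kb, 0 were called higher and 2 lower, Unc119 at -0.42 and Sdf2 at -0.16. Pigs (0.12), 2610507B11Rik (-0.02) and BC030499 (-0.04) were not called. Over all genes 20.8% were called higher and 20.2% lower, and 5 genes are too few to set apart from these shares.

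Aldoc also followed Spag5 within the OPA1 BKO mice. Pearson's r was 0.91 (exact permutation p = 0.0027, adjusted p = 0.0321 over 12 relations of 6 neighbours in 2 genotypes) and rho was 0.93 (adjusted p = 0.0268 by the same permutation test). Without S04 and S06 r was 0.81, and after centring on sex it was 0.89 with an adjusted permutation p of 0.0729. Pigs, the next gene on, had r of 0.86 in these mice with an adjusted permutation p of 0.053. In WT mice r between Aldoc and Spag5 was 0.51 (adjusted permutation p = 0.605). These relations were computed after the values of both genes had been seen, and whether transcripts run on from Spag5 into Aldoc was not tested.

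**Figure D3:**
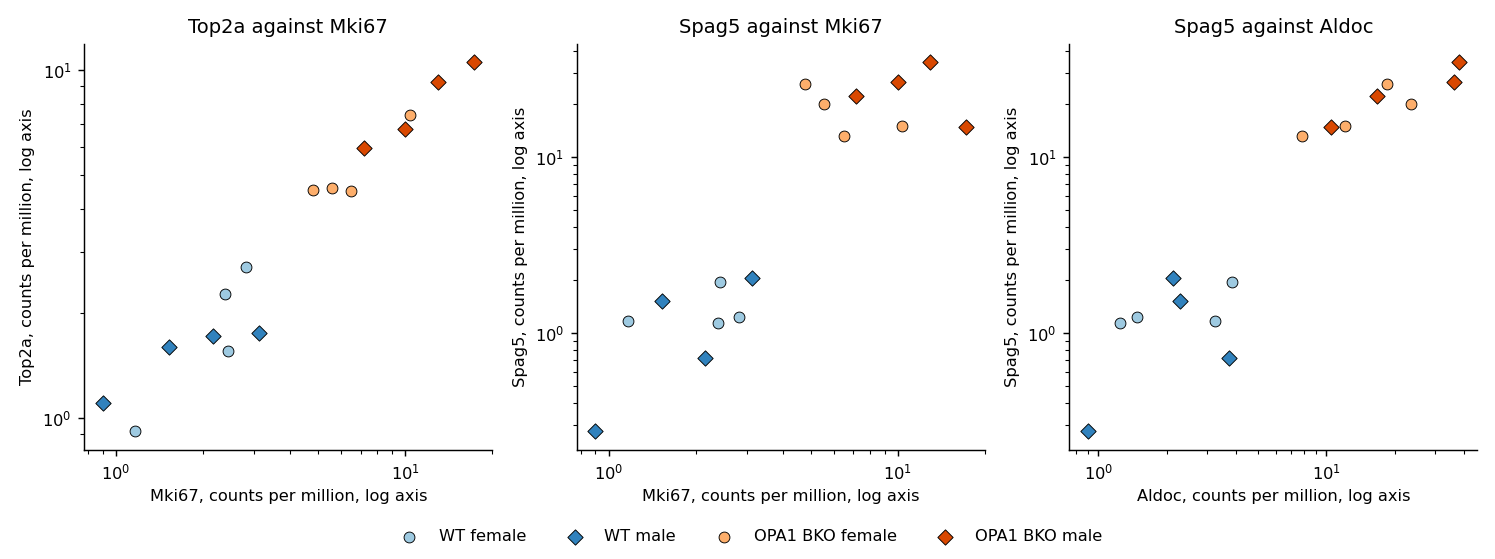
CPM on log axes in each of 16 mice, for Top2a against Mki67 (left), Spag5 against Mki67 (middle) and Spag5 against its neighbour Aldoc (right). Among the 8 OPA1 BKO mice r is 0.97 on the left, -0.06 in the middle and 0.91 on the right.

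Letters of the CCAAT box or the CHR occurred in most of the promoters searched. Late cell cycle genes are a class commonly tied to these elements, so the counts below are not independent of the choice of genes. RefSeq promoter windows on GRCm38.p6, from 250 bases before to 50 bases after the start, were at hand for 8 of the 10 genes, all but Ccna2 and Ccnd1. They were searched on both strands for TTTGAA or TTCGAA (CHR), for CCAAT, also for TTCCCGC or TTCGCGC or TTGCCGC or TTGGCGC (E2F), and for TGATGNAA, the amino acid response element bound by ATF4. The CHR letters were found in 5 of the 8 windows and in 19.2% of all 32851 promoters, CCAAT in 7 of 8 and 37.4%, the E2F letters in 3 of 8 and 9.57%, and TGATGNAA in 0 of 8 and 3.97%. In Ccnb1 a match to the E2F letters overlaps a CCAAT match. Below are the 200 bases before to 10 bases after the start of Mki67, Top2a, Cdk1 and Spag5. Birc5 and Ccnb1 also went with Mki67 in OPA1 BKO mice, but their windows hold 0 CHR matches, and that of Birc5 also 0 CCAAT matches. A link between these letters and moving together was not tested. Capitals mark matches to the CHR and CCAAT letters on either strand.
Mki67 (chr7:135716370-135716579, minus strand): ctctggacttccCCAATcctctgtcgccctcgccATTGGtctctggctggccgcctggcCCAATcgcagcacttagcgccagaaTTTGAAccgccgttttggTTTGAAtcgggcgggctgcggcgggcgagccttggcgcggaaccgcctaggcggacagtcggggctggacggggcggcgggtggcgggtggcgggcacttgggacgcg
Top2a (chr11:99024180-99024389, minus strand): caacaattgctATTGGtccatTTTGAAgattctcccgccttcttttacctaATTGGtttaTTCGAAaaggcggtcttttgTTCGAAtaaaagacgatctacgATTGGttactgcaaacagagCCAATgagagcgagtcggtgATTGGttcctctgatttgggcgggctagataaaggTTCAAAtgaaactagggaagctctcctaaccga
Cdk1 (chr10:69352903-69353112, minus strand): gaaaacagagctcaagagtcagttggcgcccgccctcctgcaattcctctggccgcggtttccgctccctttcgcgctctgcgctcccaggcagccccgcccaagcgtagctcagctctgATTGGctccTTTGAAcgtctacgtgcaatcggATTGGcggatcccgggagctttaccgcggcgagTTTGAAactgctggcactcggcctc
Spag5 (chr11:78301391-78301600, plus strand): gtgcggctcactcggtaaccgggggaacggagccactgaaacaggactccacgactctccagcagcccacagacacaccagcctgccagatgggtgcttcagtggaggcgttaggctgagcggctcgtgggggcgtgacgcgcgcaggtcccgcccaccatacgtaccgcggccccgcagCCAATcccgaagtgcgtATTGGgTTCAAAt

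Top2a holds 4 CHR and 6 CCAAT matches in its window, Mki67 2 and 3, Cdk1 2 and 3, and Spag5 1 and 2. In Spag5 the CHR match lies 3 bases past the RefSeq start and its CCAAT matches 20 and 3 bases before it, so Spag5 holds both kinds of match, as Mki67, Top2a and Cdk1 do. The RefSeq start, at base 78301591, lies past the start of that full-length transcript in the GENCODE annotation. Mcm2 holds 1 of each, Ccnb1 2 CCAAT and Pcna 1 CCAAT, while Birc5 holds 0 of both. A match is a run of letters and not a measured binding site.

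The change with genotype was larger in males than in females for all 10 genes, but for none did the difference pass the test. Spag5 had log2 fold changes of 4.43 (SE 0.43) in males and 3.76 (SE 0.41) in females, Mki67 of 2.62 (SE 0.39) and 1.62 (SE 0.37), Top2a of 2.39 (SE 0.31) and 1.48 (SE 0.30), and Ccna2 of 2.05 (SE 0.32) and 0.55 (SE 0.31). The interaction of genotype and sex was estimated at 0.19 (Pcna) to 1.49 (Ccna2) on the log2 scale. Ccna2 had the lowest adjusted p, 0.159 (edgeR, unadjusted p = 0.00404), and 2 of the 10, Ccna2 and Top2a, had an unadjusted p under 0.05, against 13.1% of all genes. Over all genes 18, or 0.115%, were called. For Spag5 the interaction was 0.67 (SE 0.57), so a difference between the sexes of that size could not be resolved.

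**Figure D4:**
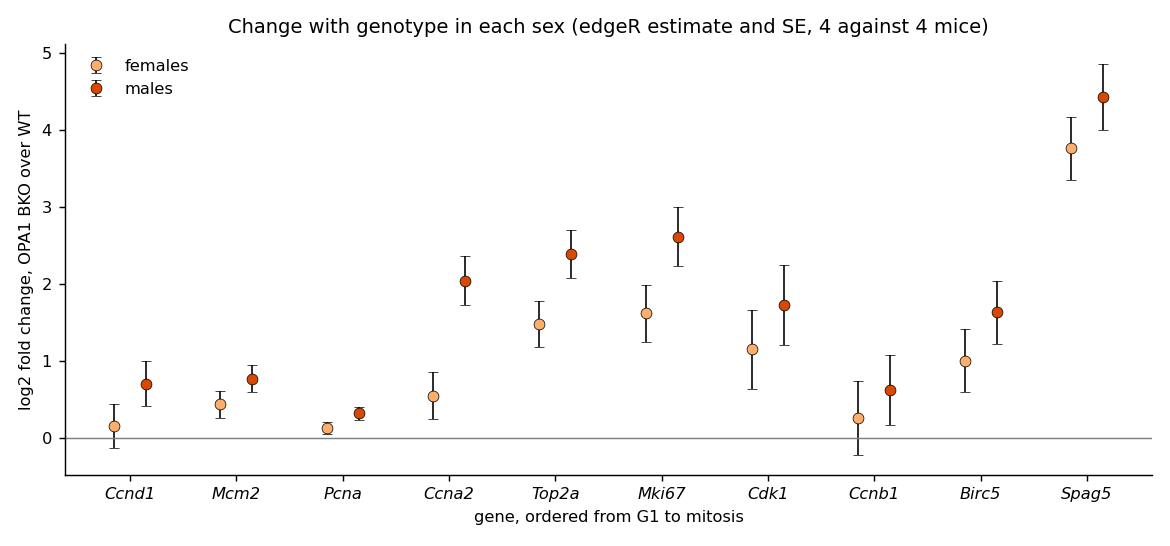
Log2 fold change of OPA1 BKO over WT for each of the 10 genes in females and in males, with the standard error of the edgeR estimate as bars and 4 against 4 mice for each point. The estimate is higher in males for every gene, with bars that overlap for 6 of them, and Spag5 lies at 3.76 and 4.43.

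Within the OPA1 BKO mice all 10 genes had a higher mean in males, a difference that is itself part of the interaction above. Many of these genes went together from mouse to mouse, so they are not 10 independent observations. The log2 difference of males over females was 1.02 (SE 0.29) for Ccna2, 0.99 (SE 0.45) for Ccnb1, 0.89 (SE 0.38) for Birc5, 0.85 (SE 0.48) for Cdk1, 0.79 (SE 0.35) for Mki67 and 0.63 (SE 0.28) for Top2a. It was 0.40 (SE 0.34) for Spag5 and 0.08 (SE 0.08) for Pcna. With edgeR 0 of the 10 had an adjusted p under 0.05, against 3.85% of all genes, and the lowest was 0.0661 for Ccna2. An unadjusted p under 0.05 was reached by 5, Mki67, Top2a, Ccna2, Ccnb1 and Birc5, against 20.05% of all genes. Ccnb1 was the one gene of the set in which every OPA1 BKO male stood above every OPA1 BKO female, at 1.62 to 2.25 against 0.64 to 1.61 CPM, which 8.11% of all genes did. Ccna2 passed with DESeq2, at an adjusted p of 0.0222, and without WT male S15 or OPA1 BKO male S16, at 0.0469 and 0.04.

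In WT mice no gene of the set differed between the sexes by the test. The log2 difference of males over females ran from -0.48 (Ccna2) to 0.62 (Ccnb1), 3 of the 10 were above 0, and the lowest adjusted p was 0.50 with edgeR. Of all genes 0.23% were called in this contrast, and 0 of the 10 had an unadjusted p under 0.05, against 16.5% of all genes.

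Other genes of G2 and mitosis were called higher in OPA1 BKO mice more often than lower. Over all 15632 genes, 20.8% were called higher and 20.2% lower (adjusted p under 0.05, edgeR). Of 48 tested genes of a list of G2 and mitosis, with the 4 members of the set left out, 36 were called higher and 0 lower, and the median of the 48 was 0.93 on the log2 scale. Of these 48, 17 were below the count filter in WT mice and were tested only through the counts of OPA1 BKO mice, so nothing is read from their calls. Of the 31 that reached the filter in WT mice alone, 20 were called higher and 0 lower, with a median of 0.56, against 20.5% higher and 21.9% lower among all such genes. Anln, which encodes anillin of the cleavage furrow, was the most changed of the list at 2.34 (SE 0.13, adjusted p = 2.2e-09, edgeR). It measured 1.58 to 2.82 CPM in WT and 8.01 to 13.2 CPM in OPA1 BKO mice. Ckap2, a spindle protein, and the mitotic kinases Aurkb and Bub1 (both named after their values were seen) had log2 fold changes of 2.30, 2.17 and 2.09, but were among the 17, and Ckap2 measured 0 to 0.367 CPM in WT mice. The log2 fold change of Spag5, 4.08, was above that of every gene of the list. Spag5 is in a set chosen on this contrast, so this order is a description and no evidence that Spag5 is exceptional.

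Of 40 tested genes of an S phase list, with Mcm2 and Pcna left out, 21 were called higher and 1 lower, against 20.8% and 20.2% of all genes, with a median of 0.35. Of the 36 that reached the filter in WT mice alone, 17 were called higher and 1 lower, with a median of 0.28. Clspn, a replication checkpoint protein, and E2f8, a transcription factor of the E2F family, had the largest log2 fold changes, 1.42 and 1.4, and were below the filter in WT mice. The difference between the lists was not tested. Gmnn, which encodes geminin, an inhibitor of replication licensing, was the one that fell, by 0.82 on the log2 scale (adjusted p = 0.00033).

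**Figure D5:**
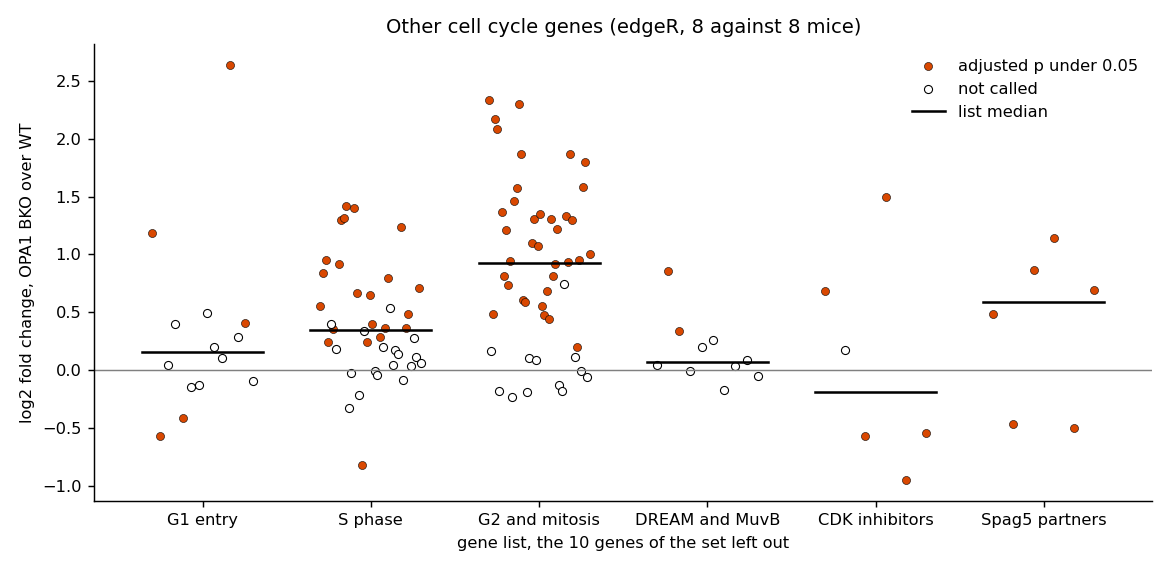
Log2 fold change of OPA1 BKO over WT for each tested gene of 6 lists, the 10 genes of the set left out. Filled points have an adjusted p under 0.05 with edgeR. The bars are list medians, 0.93 for G2 and mitosis (17 of 48 genes below the count filter in WT mice) and 0.35 for S phase (4 of 40). The median of all genes was 0.01. Among genes that reached the filter in WT mice alone, the medians were 0.56 and 0.28, against -0.01 for all such genes.

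Genes that control entry into the cycle were called in both directions. Of 14 tested genes of G1 entry besides Ccnd1, 3 (21.4%) were called higher and 2 (14.3%) lower, shares near those of all genes (20.8% and 20.2%). Myc, a growth-promoting transcription factor, rose by 2.64 (SE 0.36), from 2.94 to 8.17 CPM in WT to 13.2 to 69.4 CPM in OPA1 BKO mice, and Ccnd2 (cyclin D2) rose by 1.18 and Tfdp1 (named after its value was seen) by 0.41. Ccnd3 (cyclin D3) and Cdk2 fell by 0.57 and 0.42. Among 6 tested inhibitors of cyclin-dependent kinases, Cdkn2b rose by 1.5, from a level below the count filter in WT mice, and Cdkn1a by 0.69, while Cdkn2c, Cdkn1c and Cdkn2d fell by 0.95, 0.57 and 0.54, and Cdkn1b had 0.17. Cdkn2a, at 0 to 0.187 CPM, was too low to be tested. With library size alone or with limma on TPM, none of the genes on the S phase and G1 entry lists was called lower, so those falls hold relative to the bulk of genes.

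Of 6 genes whose proteins are known to work with astrin, 4 were called higher and 2 lower, against 20.8% and 20.2% of all genes. Knstrn, which encodes its kinetochore partner kinastrin, rose by 1.14 (SE 0.32, adjusted p = 0.0096), from 0.12 to 1.45 CPM in WT to 0.64 to 2.86 CPM in OPA1 BKO mice. Espl1, which encodes separase, rose by 0.86, and the mitotic kinases Plk1 and Aurka rose by 0.69 and 0.48. Dynll1, a dynein light chain, and Mycbp fell by 0.46 and 0.50. Each of these rises was smaller than the log2 fold change of Spag5 at 4.08, but Spag5 is in a set chosen on this contrast. Of 10 genes of the MuvB and DREAM complexes, which control genes with a CHR, Foxm1 rose by 0.86 and Lin37 by 0.33 and 8 were not called, so 20% were called higher, near the 20.8% of all genes.

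Markers of other cell types moved with genotype as well. Of 10 macrophage markers 9 were called higher, against 20.8% of all genes, all but Cd163, with Trem2 at 2.20 and Cd68 at 1.57, and their summed level was 110 to 168 CPM in WT and 147 to 574 CPM in OPA1 BKO mice. Of 8 markers of fibroblasts and preadipocytes 5 were called higher, with sums of 453 to 719 and 503 to 1036 CPM. These sums give most weight to the most abundant marker. In OPA1 BKO mice that was Lyz2 for macrophages (mean 167 CPM) and Col3a1 for fibroblasts and preadipocytes (mean 426 CPM). Lymphocyte markers had 0 of 10 higher and 3 lower, endothelial markers 0 of 8 and 5, and mural cell markers 0 of 5 and 3. Over all genes 20.2% were called lower. All the defining markers were detected in every mouse but Ms4a1, a B cell marker, which was at 0 counts in some. Brown adipocyte markers summed to 8421 to 13961 CPM in OPA1 BKO and 14326 to 21604 CPM in WT mice, with Fabp4, Cidea and Adipoq lower and Elovl3 higher among 9. Skeletal muscle markers, with 0 of 7 called, summed to 3.30 to 17414 CPM in OPA1 BKO mice and 21.8 to 7154 CPM in WT mice. Without S04 and S06, the 2 mice with the highest sums, Spag5 had a log2 fold change of 4.05. The part of these markers in the values of the set was not tested.

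From mouse to mouse among the 8 OPA1 BKO mice, no relation between summed macrophage or fibroblast and preadipocyte markers and the set passed the test after adjustment. For macrophage markers S12 had the highest sum, 574 CPM, and S04 and S14, at 404 and 386 CPM, were next, and the same 3 mice had the highest Mki67. Pearson's r was 0.84 with Mki67 (rho 0.83), 0.82 with Cdk1 (rho 0.79) and 0.79 with Top2a (rho 0.69). With Birc5, Ccna2, Mcm2 and Ccnb1 it was 0.77, 0.70, 0.67 and 0.64. It was low with Ccnd1 at 0.34 (rho 0.12) and Pcna at 0.14 (rho 0.29), and -0.24 with Spag5 (rho -0.17). By the exact permutation test the unadjusted p was 0.0084 for Mki67 and the adjusted p over 40 relations, added after the values were seen, was 0.238 for Mki67 and Cdk1 and 0.72 for Spag5. Without S10 and S12, r was 0.75 for Mki67, 0.36 for Pcna, -0.10 for Spag5 and -0.21 for Ccnd1. After centring on sex it was 0.84, -0.02, -0.49 and 0.10 in this order. The sums of fibroblast and preadipocyte markers had r of 0.59 with Mki67, 0.70 with Cdk1, 0.63 with Birc5 and -0.54 with Spag5. Spearman's rho was 0.45, 0.48, 0.48 and -0.57 in this order. After centring on sex r was 0.76, 0.82, 0.80 and -0.61, but without S10 and S12 it was 0.05, 0.29, 0.09 and -0.65. The difference between the coefficients of Mki67 and of Spag5 was not tested.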

How the data were processed

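RNA was extracted from the BAT of 16 mice with TRIzol and columns, and stranded libraries of polyadenylated RNA were sequenced on a HiSeq4000. The authors quantified reads with Kallisto 0.45.0 on mm10, and the deposited files list for each transcript an estimated count and a TPM value. Transcript IDs were joined to GENCODE M21 without their version, which matched 133284 of 135308 transcripts, and the 2024 left out held 0.483% to 0.73% of counts.

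Estimated counts were summed per gene and rounded. Genes were filtered with filterByExpr (minimum count 10), scaled by TMM and fitted with glmQLFit and glmQLFTest of edgeR 4.0.16 (R 4.3.3), with sex as a covariate for genotype and group means for the other contrasts, and adjusted by Benjamini-Hochberg over 15632 genes. CPM values carry the TMM scaling, and correlations used log2 CPM with a prior count of 2. limma 3.58.1, DESeq2 1.42.0, other scalings and filters, and leaving out each mouse were the alternatives. Counts from the second pipeline of the study (HISAT2, featureCounts) were not used here.

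The 10 genes and the lists were chosen with earlier results of these data known. The genes named are the set, the most changed called genes of each list, all CDK inhibitors and astrin partners, the genes most like Spag5 and its coding neighbours within 50 kb. Sequences are RefSeq's, on GRCm38.p6. The counts of the lists among genes that reach the filter (0.5475 CPM in 4 or more mice) in WT mice alone were added after seeing the data. Low counts limit the precision of the late genes in WT mice.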

Additional observations from a re-analysis of the deposited data

Results flagged for a closer look

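In 5 of the 40 groups of 4 mice (10 genes in 4 groups), 1 mouse stood apart from the other 3 by a gap that Dixon's test at the 95% level flags, which chance does in about 1 of 20 groups. The groups share mice and genes that move together, so they are not independent, and the flags all fall on S14 and S09. OPA1 BKO female S14 was the high mouse in 3 mitotic genes, with 7.40 CPM of Top2a against 4.49 to 4.59 CPM in the other females, 1.61 CPM of Ccnb1 against 0.641 to 0.698 CPM, and 2.92 CPM of Cdk1 against 1.07 to 1.28 CPM. Its summed macrophage markers, 386 CPM, were the highest of the 4 OPA1 BKO females, and their part in these values was not tested. WT female S09 was the high mouse in 2 genes, with 4.81 CPM of Mcm2 against 3.92 to 4.03 CPM and 1.94 CPM of Spag5 against 1.14 to 1.24 CPM.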

How the results depend on the processing

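No paired analysis was possible because each mouse carries its own number and no number is shared between groups. The log2 fold changes of the 10 genes kept their sign under every alternative in which they were fitted, with a range of 3.77 to 4.63 for Spag5 and 0.19 to 1.13 for Pcna. Mki67 and Ccnb1 were below a mean TPM of 1 and so were not fitted with that filter. Ccnb1 ran from 0.23 with counts scaled from TPM to 1.02 with library size alone, and was 0.72 without WT female S01 and 0.29 without OPA1 BKO female S14. With library size alone 11242 genes were called for genotype (10869 higher, 373 lower), 36 S phase genes higher and 0 lower, and 12 G1 entry genes higher and 0 lower. With limma on TPM these were 13611 genes (13492 higher, 119 lower), 39 and 0, and 14 and 0. Keeping genes with a mean TPM of at least 1 left 18 genes of G2 and mitosis called higher, since fewer were tested, with a list median of 0.53 (0.93 as reported, 1.48 with library size alone), and 29 genes called for the interaction. The latter were 203 with library size alone, 354 with DESeq2, 4 without S04 and S06 (chosen after seeing the data) and 2 to 62 when each mouse was left out. The lowest of these, 2, came without WT male S03 or OPA1 BKO male S08. For the sexes, DESeq2 called 541 genes in WT and 1174 in OPA1 BKO mice. The WT count ran from 11 to 608 over left-out mice, with 608 without S07. The OPA1 BKO count ran from 203 (without S12) to 618 and was 332 with no filter, 374 with counts scaled from TPM and 180 without S04 and S06. Without S04 and S06, 35 genes of G2 and mitosis and 18 of S phase were called higher. Without WT female S13, 2 genes of G2 and mitosis were called lower (0 to 2 over left-out mice). The interaction of Ccnb1 was -0.22 without WT female S01 (-0.22 to 0.81 over left-out mice). On log2(TPM + 0.5), 2 relations of Spag5 passed in WT mice, and the median r of Spag5 in OPA1 BKO mice was -0.11, against -0.50 after centring on sex and 0.01 as reported. The cause of these shifts was not tested. Depth limits the late genes in WT mice, with counts of 4 to 57 for Spag5, Mki67 and Cdk1.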
